A study of Chlorocebus aethiops vervet with 14 samples.

Results

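The receptors for acetylcholine, monoamines and neuropeptides form a group of 58 genes on the Rhesus Macaque Genome Array, out of 14132 genes with a single symbol there. They were chosen by gene symbol alone and cover muscarinic and nicotinic acetylcholine receptors and the receptors for serotonin, noradrenaline, histamine, dopamine, opioids, somatostatin, neuropeptide Y and tachykinins. Each gene was read at its brightest probe set, the one with the highest mean log2 signal over the arrays, out of 89 receptor probe sets in all.

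The tissue was the lateral geniculate nucleus, the thalamic relay from retina to visual cortex, of normal adult male vervet monkeys with no treatment. Laser capture under a cresyl violet stain collected either neuronal cell bodies or tissue of a whole layer, at roughly 3000 laser pulses a sample. Captures came from the magnocellular (M) layers, which hold large relay cells, and from the parvocellular (P) layers, which hold smaller ones. This gave 4 groups of 3 arrays, each group from 3 individual animals: M neurons, P neurons, M layers and P layers, and the labels do not say whether the groups share animals. The RNA was amplified through repeated rounds before hybridization, and the probes follow rhesus sequence, so that a mismatch to the vervet RNA can lower a probe set everywhere. Values below are MAS5 signals on a linear scale, and since each probe set binds with its own strength, an order of signals across genes is no order of RNA amounts. Differences are on the log2(signal + 16) scale with the standard error (SE) of a limma model over all 12 rhesus arrays, and a gene is called at a Benjamini-Hochberg adjusted p under 0.05.

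Relay cells receive retinal input through fast glutamate receptors, and the receptors described here set how that input is passed on. Acetylcholine from the brainstem, noradrenaline from the locus coeruleus, serotonin from the raphe nuclei and histamine from the hypothalamus all reach the geniculate and change the firing mode of its cells with arousal. Most of these receptors couple to G proteins and act on potassium and calcium channels or second messengers. Nicotinic receptors and the serotonin 5-HT3 receptor are instead ion channels opened directly by the transmitter.

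The median signal of an array lay between 11.9 and 14.8, and correlations of log2 signal across probe sets were 0.970 to 0.978 within groups and 0.956 to 0.975 between groups. The capture types were checked against marker genes, of which several defining ones, NEFM, NEFL and SLC17A6 among them, were not analysed here. Over both layer types, 5 of 7 tested astrocyte markers, 3 of 5 oligodendrocyte markers and 3 of 5 vascular markers were called lower in neurons than in layers, against 4.59% of all tested probe sets. The astrocyte marker ALDOC was called higher in neurons. Of 8 tested microglial markers 1 was called lower. Of 4 tested neuronal markers 2 were called higher in neurons, against 19.5% of all tested probe sets, and the median of the 4 was 0.22. ENO2, a neuronal enolase, rose by 0.91 ± 0.13 (adjusted p = 7.90e-05, limma) and TCF7L2, a thalamic transcription factor, by 0.26 ± 0.08 (adjusted p = 0.0276). The neurofilament gene NEFH stood at 0.18 and the synaptic vesicle gene SYT1 at -0.03. Glial RNA was present in every neuron array all the same: the summed signal of 8 astrocyte markers was 6246 to 8562 on the neuron arrays, against 7279 to 9909 on the layer arrays. That sum takes in ALDOC. GFAP, SLC1A3 and SLC1A2 had group means of 720, 446 and 1263 in M neurons and 457, 556 and 1023 in P neurons. Their layer means were 1375, 1195 and 2173 in M and 658, 957 and 1743 in P. In such bulk captures, fewer cells of a type and less RNA per cell cannot be told apart.

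Most receptors gave little signal. Of the 58 genes, 29 had a mean signal under 10 over the 12 arrays, and only CHRM3 and CHRNA7 had one above 100. Another 5, CHRNA3, CHRNA5, OPRL1, OPRM1 and NPY5R, joined them in lying above the array's median on all 12 arrays. In all, 23 receptor genes passed the signal filter of the test, a mean of at least the median of 12.6 over all probe sets outside the controls, against 10030 of the 14132 named genes. The other 35 had a mean of at most 12.1 and no array above 30.9. For these a low reading cannot be told apart from a probe that does not bind the vervet transcript.

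**Figure D1:**
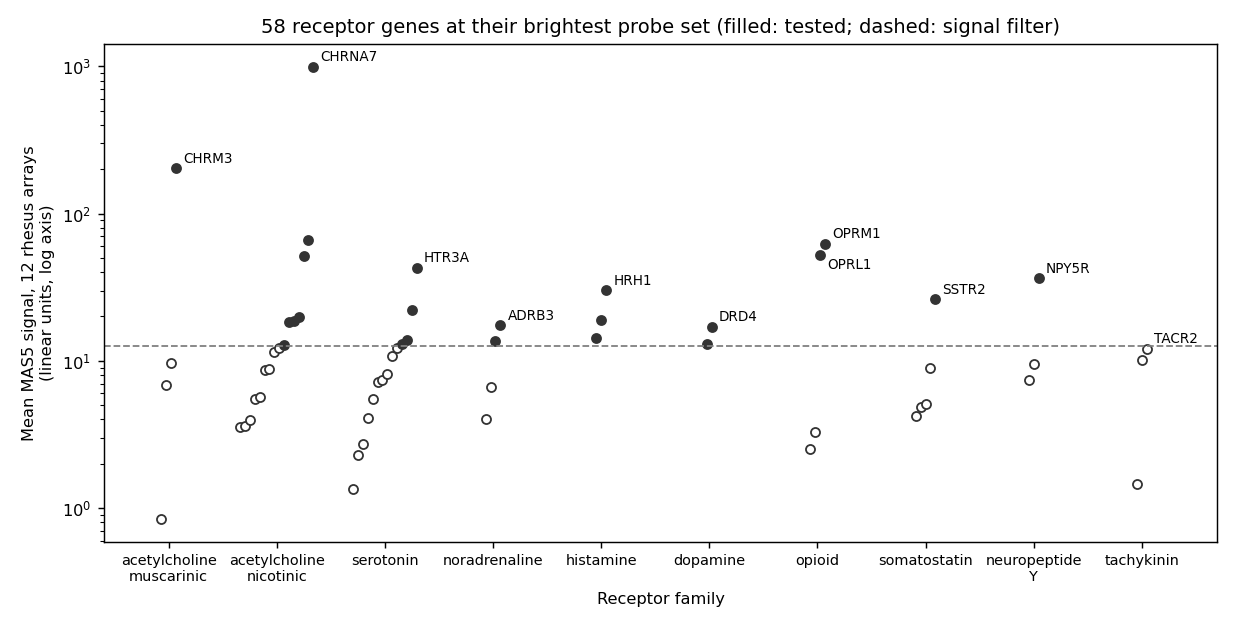
Mean MAS5 signal over the 12 rhesus arrays (log axis) of each of the 58 receptor genes at its brightest probe set, by transmitter family. Filled points are the 23 tested genes and the dashed line is the signal filter at 12.6; CHRNA7 and CHRM3 are the only points above 100, and no tachykinin receptor passed.

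By transmitter, tested genes numbered 1 of 4 muscarinic, 7 of 16 nicotinic, 4 of 14 serotonin, 2 of 4 noradrenaline, 3 of 3 histamine, 2 of 2 dopamine, 2 of 4 opioid, 1 of 5 somatostatin, 1 of 3 neuropeptide Y and 0 of 3 tachykinin receptors. Among the muscarinic receptors CHRM1, CHRM4 and CHRM5 stayed under the filter, at means of 0.843, 6.87 and 9.63. The brain's main nicotinic heteromer pairs CHRNA4 with CHRNB2, and of these CHRNA4 was dim (3.54) while CHRNB2 was tested (18.3). HTR1A, the serotonin autoreceptor, had a mean of 8.10, and the kappa and delta opioid receptors OPRK1 and OPRD1 had means of 3.30 and 2.53. TACR2, a receptor for neurokinin A and the brightest of its family, ran from 2.35 to 22.0 over the arrays, with group means of 10.7 in M neurons, 9.26 in P neurons, 13.1 in M layers and 15.3 in P layers. None of these dim genes was tested.

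The first comparison was between M and P. Over both captures 2 of the 23 receptor genes were called, HTR3A and HRH1, and both were lower in M. In this comparison 0.83% of all tested probe sets were called, and 0.406% were called lower in M. The median difference of the 23 genes was -0.03, and of all tested probe sets 0.03. At an unadjusted p under 0.05 CHRNA3 joined them, and 9.94% of all probe sets passed. No receptor gene was called by limma within neurons alone, where 0.296% of all probe sets were called. None was called within layers alone either, where 0.159% of all probe sets were called and 0.0606% were called lower in M. At an unadjusted p under 0.05, HTR3A and HRH1 passed in each, against 7.47% of all probe sets in neurons and 5.8% in layers. In neurons these 2 genes were also those whose M arrays all lay below the P arrays (5.31% of probe sets), and no receptor had all its M arrays above (6.06%). In layers the same 2 genes lay below (3.65%) and ADRA2A lay above (8.21%). A model with replicate number as a block called HRH1 in neurons and HTR3A in layers. It called 189 and 89 of all tested probe sets there, against 78 and 42 without the block.

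HTR3A encodes the subunit that every serotonin 5-HT3 receptor, a cation channel, needs. Its signal was 30.5, 29.3 and 45.2 in M neurons and 52.1, 92.3 and 89.1 in P neurons. In the layer captures it was 11.1, 4.50 and 22.7 in M and 33.9, 54.8 and 49.2 in P. All 6 M arrays lay below the P arrays of their own capture type, and the lowest values were those of the M layers. The difference over both captures was -1.002 ± 0.18 (adjusted p = 0.00565, limma), a fold of 0.499 on the scale used. It was -0.86 ± 0.25 in neurons (adjusted p = 0.234) and -1.14 ± 0.25 in layers (adjusted p = 0.0873; blocking on replicate number gave 0.00935). Scaling the arrays to a common distribution or trimmed mean also called it in layers (adjusted p = 0.0356 and 0.0413), as did leaving out M layer 3 (0.0337). A second probe set of HTR3A was below the filter, with group means of 2.70 to 4.63, and was not tested. The mean of both probe sets gave -0.49 (adjusted p = 0.115).

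HRH1, the histamine H1 receptor, couples to phospholipase C and is a target of the hypothalamic arousal system. Its signal was 2.40, 17.4 and 19.2 in M neurons and 22.1, 69.0 and 65.6 in P neurons. It was 9.04, 26.6 and 17.2 in M layers and 28.5, 52.4 and 33.4 in P layers. The M and P arrays did not overlap in either capture, but in both the highest M array came close to the lowest P array. The difference was -1.20 ± 0.31 in neurons (adjusted p = 0.151, limma; blocking on replicate number gave 0.0028) and -0.70 ± 0.31 in layers (adjusted p = 0.826). Over both captures it was -0.95 ± 0.22 (adjusted p = 0.0439). Values this near the filter rest on the pseudocount: with 1 in place of 16 the difference was -1.64 (adjusted p = 0.100) and with 64 it was -0.45 (adjusted p = 0.0401). With no signal filter the adjusted p was 0.145. With no intensity trend or with probe sets averaged, HRH1 was not called over both captures. It was called there with replicate number as a block, where 473 of all tested probe sets were called against 219 in the reported model. Quantile normalization and trimmed-mean scaling kept its call as well, with 512 and 467 of all tested probe sets called. The call over both captures was kept when M neuron 3, P neuron 1 or M layer 2 was left out and lost without any of the other arrays (differences from -1.14 to -0.80, adjusted p up to 0.134). Without P neuron 1, HRH1 was called in neurons as well (-1.58, adjusted p = 0.0269). The second probe set of HRH1, with group means of 6.86 in M neurons, 19.2 in P neurons, 11.9 in M layers and 17.2 in P layers, stood at -0.42 ± 0.18 over both captures (adjusted p = 0.413).

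**Figure D2:**
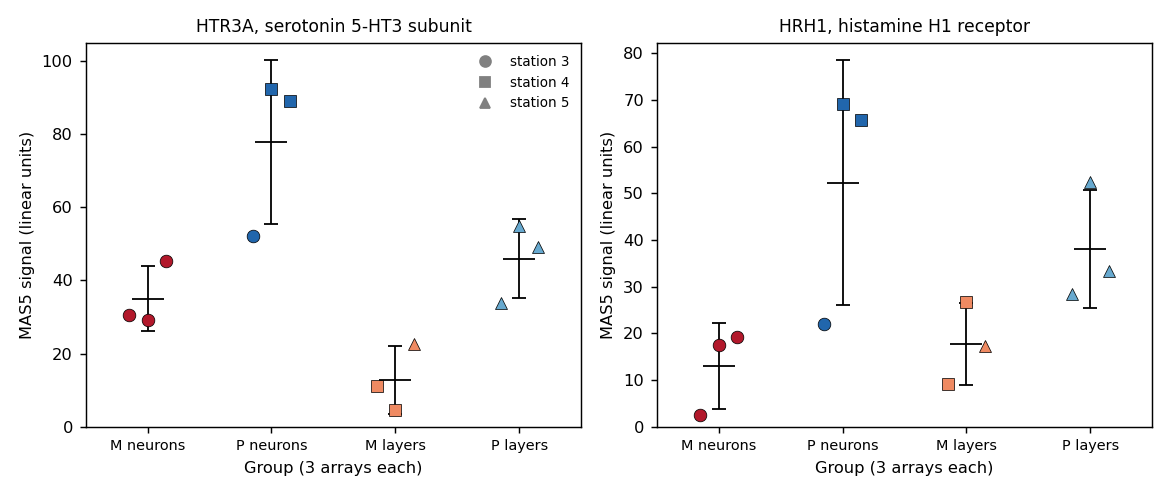
MAS5 signal (linear axis from 0) of HTR3A and HRH1 on each of the 12 rhesus arrays by group, with the mean and SD of 3 arrays as bars and the marker shape giving the fluidics station. In both genes the M points lie below the P points of the same capture type, and the P neuron array run on station 3 with the M neurons is the lowest of its group.

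Both differences moved with the fluidics station, as the instrument records name it. Station 3 ran the M neurons and P neuron 1, station 4 ran P neurons 2 and 3 with M layers 1 and 2, and station 5 ran M layer 3 with the P layers. With station as a block HTR3A stood at -0.55 ± 0.22 (adjusted p = 0.47, limma) and HRH1 at -0.56 ± 0.27 (adjusted p = 0.581), and neither was called. Within station 3, neurons alone gave -0.43 ± 0.35 for HTR3A and -0.45 ± 0.40 for HRH1. Within station 5, layers alone gave -0.66 ± 0.27 and -0.68 ± 0.29. Each within-station value sets 3 arrays against 1, and the direction was lower in M in all 4 of them. Station and group can be told apart only through those 2 lone arrays.

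Over both captures, cell type markers also differed in sign between M and P. All 7 tested astrocyte markers had a positive difference, the median was 0.30, and GFAP, the astrocyte filament gene, rose by 0.81 ± 0.15 in M (adjusted p = 0.0101, limma). The summed signal of 8 astrocyte markers was 6261 to 8562 in M neurons, 6246 to 7064 in P neurons, 9717 to 9909 in M layers and 7279 to 8175 in P layers. Of 5 tested oligodendrocyte markers 4 had a negative difference, as HTR3A and HRH1 did, with a median of -0.29 and no call by limma. Their summed signal was 9601 to 12651 in M neurons, 11106 to 11854 in P neurons, 12794 to 13819 in M layers and 12783 to 14381 in P layers. Of 8 tested microglial markers 7 had a positive difference and of 5 vascular markers 4 had a negative one, with no call. Of 4 neuronal markers 1 was called higher in M and 1 lower, against 0.425% and 0.406% of all tested probe sets. The summed signal of 2 interneuron markers was 815 to 1140 in M layers and 477 to 577 in P layers, and overlapped in neurons. The part of all these cells in the HTR3A and HRH1 values was not tested.

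The remaining 21 tested receptors gave no call between M and P. Of the monoamine receptors, the serotonin genes HTR1B, HTR2A and HTR7 stood at 0.08, 0.00 and -0.20 over both captures. HTR7, which raises cyclic AMP, had group means of 4.75 ± 2.57 in M neurons, 14.9 ± 7.56 in P neurons, 18.4 ± 10.8 in M layers and 14.2 ± 4.85 in P layers (SD, n = 3). Its neuron and layer differences pointed in opposite directions, at -0.55 and 0.15. ADRA2A, an inhibitory noradrenaline receptor, read 7.27, 5.70 and 21.8 in M neurons, 15.3, 8.04 and 7.86 in P neurons, 24.7, 20.7 and 19.5 in M layers and 10.9, 6.71 and 15.7 in P layers. Its M layer arrays lay above all P layer arrays, with a difference of 0.48 ± 0.24 (adjusted p = 0.876, limma). ADRB3, the brightest noradrenaline receptor, held group means of 13.9 to 19.8 and a difference of -0.09 ± 0.16 (95% interval -0.42 to 0.24).

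HRH2 and HRH3, the excitatory and the presynaptic inhibitory histamine receptors, stood at 0.10 and -0.29 over both captures. For the D4 dopamine receptor DRD4, M neurons read 21.0, 5.40 and 7.4998 and P neurons 13.8, 20.1 and 33.6, while M layers read 6.77, 7.31 and 37.6 and P layers 17.6, 19.6 and 14.7. Its groups overlapped in both captures, and the difference was -0.31 ± 0.21 (adjusted p = 0.698, limma). The D2 receptor DRD2 had group means of 11.8 to 15.1 with SDs of up to 13.2, and the difference was 0.11 ± 0.23.

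No acetylcholine receptor was called between M and P. CHRM3 stood at -0.03 ± 0.13 (95% interval -0.30 to 0.24) and CHRNA7 at -0.01 ± 0.13 (-0.28 to 0.26). These intervals cover only the average over both captures at the brightest probe set. Both signs turned when single arrays were left out. The CHRNA7 average joined -0.25 ± 0.18 in neurons and 0.23 ± 0.18 in layers. Its next brightest probe set stood at -0.83 ± 0.26 in neurons (adjusted p = 0.308, limma) and 0.28 ± 0.26 in layers. The one after it gave 0.20 ± 0.21 and -0.14 ± 0.21, and the dimmest -0.68 ± 0.27 and 0.51 ± 0.27. None of these was called. CHRNA3, the subunit known from ganglionic receptors, came nearest to a call among the nicotinic genes, with 83.1, 51.9 and 55.3 in M neurons, 78.5, 74.1 and 91.7 in P neurons, 59.5, 32.7 and 52.8 in M layers and 80.6, 55.1 and 73.2 in P layers. Its M and P arrays overlapped in both captures and the difference was -0.37 ± 0.15 (adjusted p = 0.393, limma). A second CHRNA3 probe set stood at -0.39 ± 0.18 (adjusted p = 0.463). Of the other nicotinic subunits, CHRNA2, CHRNA5, CHRNB2, CHRND and CHRNE, 4 were higher and 1 lower in M, from -0.17 to 0.18.

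Among the peptide receptors, NPY5R stood at 0.00 ± 0.19, OPRM1 at -0.17 ± 0.15, OPRL1 at -0.21 ± 0.16 and SSTR2 at -0.21 ± 0.22, with adjusted p from 0.741 to 0.999 (limma). SSTR2, the most widespread somatostatin receptor, read 18.7, 22.9 and 39.1 in M neurons, 10.6, 35.7 and 19.6 in P neurons, 4.797, 32.7 and 20.2 in M layers and 22.98, 51.3 and 35.8 in P layers. Its M against P difference was 0.20 in neurons and -0.63 in layers, and the test of the difference between these, the interaction, gave 0.83 ± 0.43 (adjusted p = 1.000). No receptor had an unadjusted p under 0.05 for the interaction, which 742 of all probe sets had (2.81%), and limma called 0 probe sets at all.

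**Figure D3:**
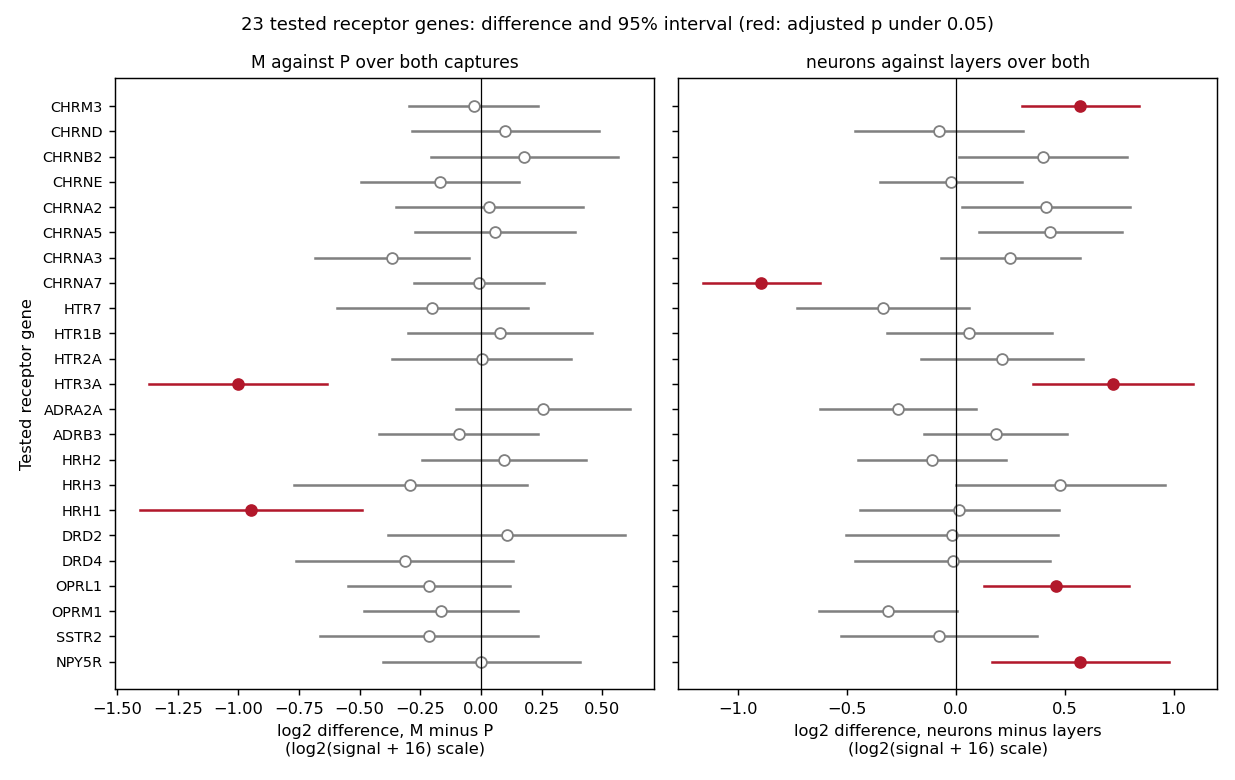
Log2 difference and 95% interval of the 23 tested receptor genes for M minus P over both captures (left) and neurons minus layers over both layer types (right), with red for an adjusted p under 0.05. On the left only HTR3A and HRH1 are red, both below 0; on the right CHRM3, HTR3A, OPRL1 and NPY5R are red above 0 and CHRNA7 below it.

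The second comparison was between captured neuronal cell bodies and whole layers. Over both layer types 5 of the 23 receptor genes were called: CHRM3, HTR3A, NPY5R and OPRL1 were higher in neurons and CHRNA7 was lower. This compares with 24.1% of all tested probe sets, 19.5% higher and 4.59% lower. Within M, CHRNA7 was called lower and HTR3A higher (2 of 23, against 10.7% of all, 2.86% lower and 7.82% higher). Within P, CHRNA7 was called lower and CHRM3 higher (2 of 23, against 10.2% of all, 1.41% lower and 8.76% higher). At an unadjusted p under 0.05 there were 6 receptors in M, 6 in P and 9 over both, against 24.5%, 24.7% and 35.3% of all probe sets. Without overlap of the arrays, 5 receptors were higher in M neurons (18.6% of probe sets) and 2 lower (7.12%), and in P neurons 2 were higher (24.9%) and 1 lower (6.15%). The receptors' median differences of 0.17 in M, 0.13 in P and 0.06 over both lay beside 0.13, 0.15 and 0.13 for all tested probe sets. That shift of all probe sets depends on the scale of the arrays: it was 0.01 after quantile normalization and -0.05 after scaling to a common 2% trimmed mean. Of all calls over both layer types 80.9% were higher in neurons as deposited, 51.9% after quantile normalization and 45.3% after trimmed-mean scaling.

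CHRM3, the M3 muscarinic receptor, couples acetylcholine to phospholipase C and to the closing of potassium channels. Its signal was 234, 214 and 265 in M neurons and 237, 249 and 281 in P neurons. In M layers it was 147, 194 and 149.9, and in P layers 156, 174 and 144. All 6 neuron arrays lay above all 6 layer arrays. The means were 237 ± 25.5 and 256 ± 22.8 in M and P neurons against 164 ± 26.1 and 158 ± 15.2 in the layers (SD, n = 3). CHRM3 rose by 0.57 ± 0.13 in neurons over both layer types (adjusted p = 0.00263, limma), a fold of 1.49, and by 0.65 ± 0.18 in P (adjusted p = 0.0274). In M it stood at 0.50 ± 0.18 (adjusted p = 0.0831). Quantile normalization and trimmed-mean scaling left 0.30 and 0.33 over both (adjusted p = 0.0346 and 0.0158) and ended the call in P (0.16 and 0.092). The call in P was also lost without P neuron 1, 2 or 3 or P layer 1 or 3 (adjusted p up to 0.125). A second CHRM3 probe set stood at 0.41 ± 0.15 (adjusted p = 0.0542).

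CHRNA7 forms the alpha 7 nicotinic receptor, a calcium-permeable channel built of this subunit alone. At its brightest probe set it went against the other called receptors. It read 733, 513 and 652 in M neurons, 785, 858 and 618 in P neurons, 1307, 1597 and 1293 in M layers and 1213, 1396 and 972 in P layers. Every neuron array lay below every layer array. CHRNA7 fell by 0.89 ± 0.13 over both layer types (adjusted p = 6.14e-05, limma), by 1.13 ± 0.18 in M (adjusted p = 0.000743) and by 0.65 ± 0.18 in P (adjusted p = 0.0274). The interaction of -0.48 ± 0.26 was not called (adjusted p = 1.000), nor were those of the gene's other probe sets. In P the call was lost with no signal filter (adjusted p = 0.0556) and without P neuron 1 or 3 or P layer 1 or 2 (up to 0.141).

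**Figure D4:**
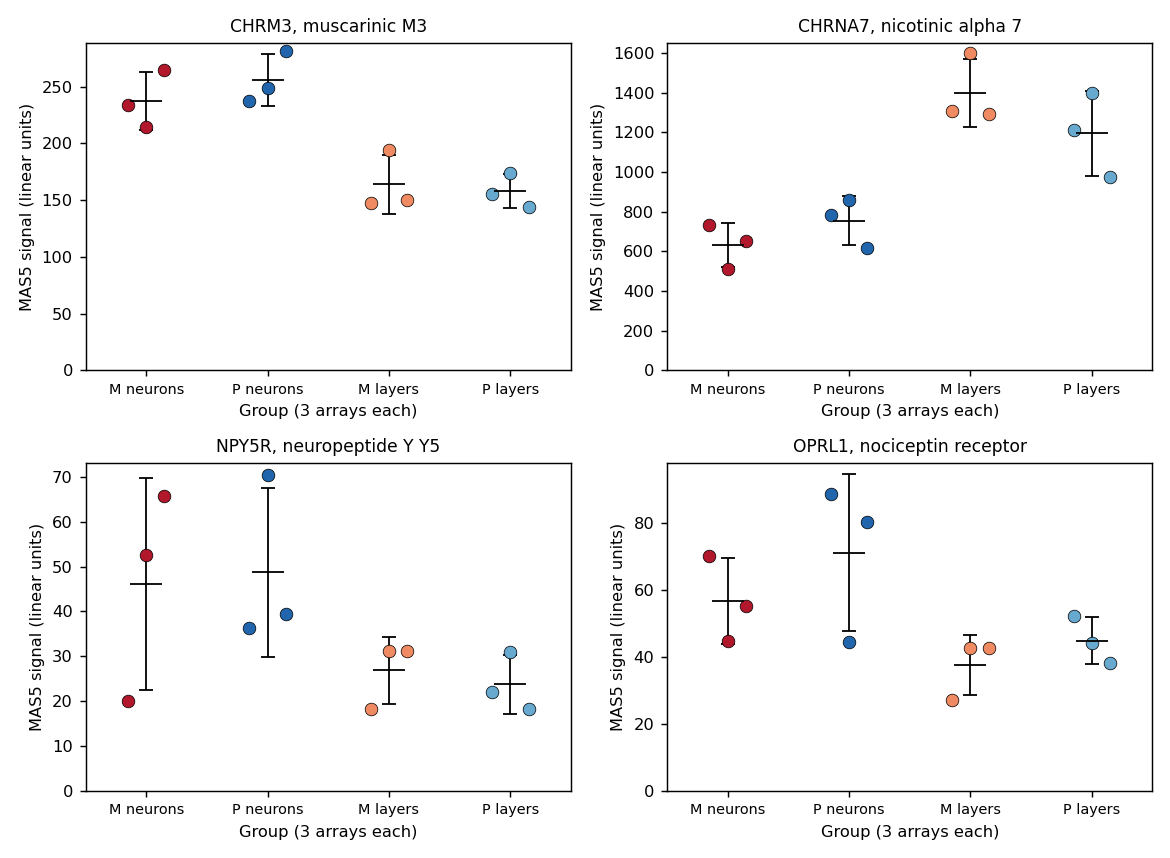
MAS5 signal (linear axes from 0) of CHRM3, CHRNA7, NPY5R and OPRL1 on each of the 12 rhesus arrays by group, with mean and SD of 3 arrays. CHRM3 separates all neuron arrays above all layer arrays and CHRNA7 separates them the other way, while NPY5R and OPRL1 overlap.

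The 4 probe sets of CHRNA7 did not read alike. MmuSTS.1620.1.S1_at read 183, 69.1 and 92.1 in M neurons against 259, 319 and 264 in M layers, a difference of -1.27 ± 0.26 (adjusted p = 0.00388, limma). In P it read 259, 220 and 143 in neurons against 224, 248 and 209 in layers, and these overlapped (-0.16 ± 0.26, adjusted p = 0.765). The dimmest of the 4 followed the same course, with -1.07 ± 0.27 in M (adjusted p = 0.0142) and 0.12 ± 0.27 in P. MmugDNA.41481.1.S1_at ran in the opposite direction: 83.6, 68.7 and 91.3 in M neurons against 40.0, 50.05 and 38.4 in M layers, higher in neurons by 0.72 ± 0.21 (adjusted p = 0.0343). Over both layer types it rose by 0.55 ± 0.15 (adjusted p = 0.0109). Thus 3 of the 4 probe sets were called lower in M neurons than in M layers, and 1 was called higher. Averaging the 4 gave -0.69 in M (adjusted p = 0.0431), -0.08 in P (0.865) and -0.38 over both (0.0642). Without sequences it was not tested which transcript each probe set detects.

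**Figure D5:**
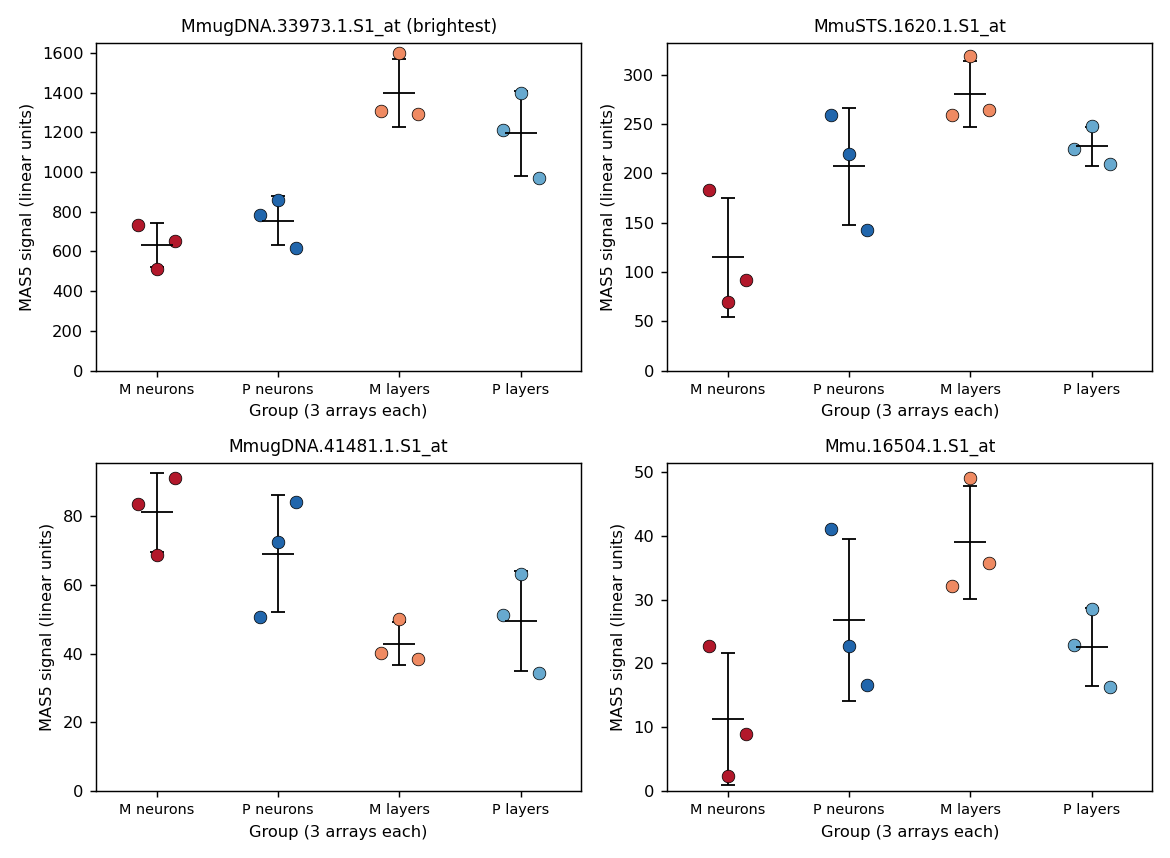
MAS5 signal (linear axes from 0, with a scale for each panel) of the 4 CHRNA7 probe sets on the 12 rhesus arrays by group, with mean and SD of 3 arrays. In 3 panels the M neurons lie below the M layers, and in the panel of MmugDNA.41481.1.S1_at they lie above them.

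HTR3A was higher in neurons than in layers as well as lower in M than in P. With the values given above, it rose by 0.72 ± 0.18 over both layer types (adjusted p = 0.00508, limma) and by 0.86 ± 0.25 in M, where the arrays did not overlap (adjusted p = 0.0315). In P it stood at 0.58 ± 0.25 with overlapping arrays (adjusted p = 0.147). Averaging its probe sets, of which the second was dim, left 0.34 over both layer types and ended the call (adjusted p = 0.0729). The call in M was lost with no signal filter (adjusted p = 0.0861), with trimmed-mean scaling (0.0574) and without M neuron 1 or 3 or M layer 1 or 2 (up to 0.149). It was also lost with a pseudocount of 64, with only the groups compared in the model, with station as a block and with probe sets averaged. In all, 10 of 22 alternatives ended it. The order of the 4 group means was thus P neurons at 77.8 ± 22.4, P layers at 46.0 ± 10.8, M neurons at 35.0 ± 8.88 and M layers at 12.8 ± 9.20 (SD, n = 3). HRH1 stood at 0.02 ± 0.22 over both layer types (95% interval -0.44 to 0.47), with a sign that changed with the scaling.

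NPY5R, the Y5 receptor for neuropeptide Y, read 20.0, 52.5 and 65.9 in M neurons, 36.2, 70.5 and 39.5 in P neurons, 18.3, 31.2 and 31.1 in M layers and 22.1, 31.1 and 18.1 in P layers. Its P neuron arrays lay above its P layer arrays, while M neuron 1 fell among the layers. It rose by 0.57 ± 0.19 in neurons over both layer types (adjusted p = 0.0368, limma). A second NPY5R probe set had group means of 26.3 in M neurons, 18.1 in M layers and 20.6 in both P neurons and P layers. Its neuron and layer arrays overlapped in M and in P. OPRL1, the nociceptin receptor, read 70.2, 44.6 and 55.2 in M neurons, 88.7, 44.5 and 80.3 in P neurons, 27.2, 42.7 and 42.8 in M layers and 52.2, 44.0 and 38.2 in P layers. It rose by 0.46 ± 0.16 (adjusted p = 0.0410). Both calls ended with no signal filter (adjusted p = 0.0993 and 0.0982), under both scalings and with probe sets averaged. Leaving out 1 array ended the NPY5R call for M neuron 2 or 3, P neuron 2, M layer 1 or P layer 1 or 3 (adjusted p up to 0.113). It ended the OPRL1 call for M neuron 1 or 3, P neuron 1 or 3, M layer 1 or P layer 2 or 3 (up to 0.108).

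Among the uncalled genes, OPRM1, the mu opioid receptor, read 51.1, 37.7 and 44.3 in M neurons against 76.5, 68.3 and 68.3 in M layers. The arrays did not overlap, and the difference was -0.53 ± 0.21 (adjusted p = 0.125, limma). In P it read 44.3, 94.3 and 57.6 in neurons and 60.1, 62.5 and 81.5 in layers, with overlap. OPRM1 was called lower in neurons over both layer types under both scalings. CHRNA5, an accessory nicotinic subunit, read 61.8, 62.3 and 76.3 in M neurons against 32.2, 42.0 and 41.4 in M layers (0.60 ± 0.22, adjusted p = 0.0899; blocking on replicate number gave 0.0437). Over both layer types it stood at 0.43 ± 0.16, just outside the threshold (adjusted p = 0.05003). CHRNA2, CHRNB2 and CHRNA3 stood at 0.42, 0.40 and 0.25 over both, and CHRND and CHRNE at -0.08 and -0.02. A second CHRNA3 probe set was called higher in neurons (0.50 ± 0.18, adjusted p = 0.0469). Of the monoamine receptors other than HTR3A, HRH3 stood at 0.48 ± 0.23 (adjusted p = 0.141) and HTR7 at -0.33 ± 0.19 (adjusted p = 0.219), with the rest between these.

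Most of the astrocyte, oligodendrocyte and vascular markers given above were lower in neurons, while 4 of 8 tested microglial markers were higher and 4 lower. The summed signal of 8 astrocyte markers was lower on all P neuron arrays than on any P layer array. It was also lower on all M neuron arrays than on any M layer array. The part of glial and vascular cells in the CHRNA7, CHRM3 and other differences was not tested. Station 4 was the one station that ran both captures, always P neurons against M layers, so most of the contrast lies between stations. With station as a block HTR3A kept its call over both layer types (1.63 ± 0.34, adjusted p = 0.0188, limma). CHRNA7 stood at -1.07 ± 0.31 (adjusted p = 0.0682), CHRM3 at 0.57 ± 0.31 (0.322), NPY5R at 1.00 ± 0.44 (0.209) and OPRL1 at 0.31 ± 0.36 (0.68).

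The genes around these receptors were described from lists of transmitter enzymes, transporters, peptide ligands and receptor partners. Between M and P no listed gene was called by limma in neurons, in layers or over both. The shares of all tested probe sets called there were 0.296%, 0.159% and 0.83%. Of 12 genes for transmitter synthesis and vesicle loading on the array, 5 were tested. Several enzymes that mark monoamine neurons themselves lay below the filter. TPH2 for serotonin had a mean of 0.682, HDC for histamine 2.78, TH for catecholamines 7.79 and DBH for noradrenaline 9.92. PNMT, for adrenaline, passed the filter at a mean of 39.7, with group means of 35.3 to 50.5. The vesicle transporter SLC18A2 passed at 19.8, and the dopamine transporter SLC6A3, from the list of uptake genes, at 27.6. CHAT, which makes acetylcholine, was just above the filter at 14.9. GCH1, which supplies the cofactor of monoamine synthesis, was lower in M neurons than in M layers (-0.71 ± 0.22, adjusted p = 0.0476) and over both layer types (-0.66 ± 0.16, adjusted p = 0.0047). It was the 1 called gene of the 5 tested, beside 10.7% of all tested probe sets in M and 24.1% over both layer types.

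Of 12 genes for uptake and breakdown, 7 were tested and 2 were called between neurons and layers over both layer types, beside 24.1% of all tested probe sets. BCHE, butyrylcholinesterase, which also splits acetylcholine, fell by 0.48 ± 0.12 in neurons (adjusted p = 0.00456, limma), from group means of 1604 and 1479 in M and P layers to 1070 and 1134 in neurons. ACHE, the main acetylcholinesterase, was below the filter at 9.47. MME, neprilysin, which degrades tachykinins and opioid peptides, rose by 0.81 ± 0.18 (adjusted p = 0.0029), with 67.8 ± 25.5 in M neurons, 37.3 ± 11.0 in P neurons, 27.8 ± 10.4 in M layers and 16.8 ± 7.57 in P layers (SD, n = 3). Of the 5 tested peptide ligands none was called in any comparison by limma. PENK, the enkephalin precursor, had group means between 4039 and 4558. NPY, the ligand of NPY5R, had 78.7 ± 14.3 and 81.5 ± 37.2 in M and P neurons and 161 ± 74.1 and 111 ± 41.5 in the layers. None of 3 tested nicotinic chaperones and modulators, among them RIC3, which assists alpha 7 assembly, was called in any comparison. The 6 receptor kinases and arrestins gave no call either. Across the comparisons the share of all tested probe sets called was at most 24.1%, for neurons against layers over both layer types.

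The labels of the 2 human arrays (HG-U133 Plus 2.0) are at odds, so these arrays entered none of the tested comparisons of groups. Their titles name M layers, whereas the source names give neuronal cell bodies. Across 8744 genes shared with the rhesus array, which are not independent, their log2 signals correlated at 0.661 to 0.672 with the neuron arrays and at 0.635 to 0.649 with the layer arrays. On that platform 67 receptor genes had a probe set of their own, 53 of them also on the rhesus array, and 22 lay above the array's median on both arrays. CHRM3 read 5652 and 4402 on its brightest probe set and 184 and 160.1 on the next. CHRNA3 read 105 and 77.8. HRH1 read 5.98 and 14.9, beside array medians of 11.2 and 9.76, and HTR3A read 29.3 and 19.8. Among 14 receptor genes seen there alone, CHRM2, the inhibitory muscarinic receptor, read 29.1 and 25.5. The human probe set of CHRNA7 carries more than 1 symbol and was not used here.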

How the data were processed

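The authors deposited a linear MAS5 intensity for each probe set, per the submitters' processing notes; its version and scaling are not given in the sources used here, and detection calls were not used here. The 2% trimmed mean ran from 59.6 to 89.6 over the rhesus arrays, so no common scaling target holds. Genes were named from probe sets with 1 symbol in the platform annotation, which can be old. No genome or sequence was used here.

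Linear models with 4 group means were fitted to log2(signal + 16) in limma 3.58.1 (R 4.3.3) over 12 rhesus arrays, an intensity trend, 8 residual and 11.7 prior degrees of freedom. It took in 26383 of 52766 probe sets whose mean signal reached the median, and p-values (two-sided) were adjusted over them by Benjamini-Hochberg. The script was tested on simulated data. The number of arrays limits the precision. Fold changes understate those of dim genes.

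The comparisons were M against P and neurons against layers, each within the other factor and over both, and the interaction; they share arrays. Called background shares are over probe sets, receptor counts over genes. Genes given per array are HRH1, CHRM3, CHRNA7, those called, the 2 with the smallest p in each comparison and the brightest of each family; CHRNA3, CHRNA5, OPRM1 in M and ADRA2A were added after their values were seen. The members, lists and rules were chosen with earlier results of these data known.

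Titles number the arrays 1 to 3 within groups. Deviations from group means of same-numbered arrays correlated at 0.180 to 0.211 for M against P in neurons and 0.145 to 0.259 in layers. For neurons against layers in M they correlated at 0.136 to 0.194. Each array's mean correlation with arrays of the other groups was highest for its own number, in 12 of 12 arrays. The labels state no pairing. The reported model held no pairing either, and replicate number as a block was fitted as an alternative. For neurons against layers in P the lowest was 0.0997 and for the interaction 0.0428. Alternatives covered the filter, pseudocount, scaling, trend, samples in the model, replicate block, station, probe set averaging and leaving out each array. The within-station values were added after seeing the data.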

Additional observations from a re-analysis of the deposited data

How the results depend on the processing

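HTR3A over both captures kept its call without each of the 12 arrays in turn, as did CHRM3, CHRNA7 and HTR3A for neurons against layers over both. Counts of called receptor genes moved as follows. With no signal filter they were 1 for M against P over both captures, 1 for neurons against layers within M, 1 within P and 3 over both layer types. With station as a block they were 0, 0, 0 and 1 in the same order, and with probe sets averaged 0, 1, 1 and 1. A pseudocount of 1 left 1 for M against P over both captures, as did no intensity trend, which also left 1 for neurons against layers in P. A pseudocount of 64, and a model of only the groups compared, left 1 for neurons against layers in M. Quantile normalization and trimmed-mean scaling gave 1 for M against P in layers and 1 for neurons against layers in P. The replicate block gave 1 for M against P within neurons, HRH1, and 1 within layers, HTR3A; it called 3 for neurons against layers in P, with NPY5R added, and 7 over both, with CHRNA5 and HRH3 added, and changed no other count by over 1.5 times. Leaving out 1 array gave 0 to 1 for M against P within neurons, likewise 0 to 1 within layers, and 1 to 2 over both captures. For neurons against layers it gave 1 to 2 within M, 0 to 2 within P and 3 to 5 over both.

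Uncalled differences near 0 changed sign. HRH1 for neurons against layers over both was -0.17 with a pseudocount of 1, -0.0439 and -0.129 under quantile and trimmed-mean scaling, -0.0546 with probe sets averaged and -0.0844 to 0.21 without 1 array. For M against P over both captures CHRM3 was 0.0573 with probe sets averaged and -0.0889 to 0.00323 without 1 array, and CHRNA7 -0.0764 to 0.0628. Over all probe sets the calls ran from 10 to 189 for M against P in neurons (78 as reported), 10 to 89 in layers (42) and 51 to 512 over both (219). They ran from 36 to 3699 for neurons against layers within M (2819), 112 to 3725 within P (2682) and 626 to 7405 over both layer types (6355). The lowest value came from the station block except for M against P in layers, where it came without P layer 3. The causes were not tested.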
